A study of Mus musculus with 16 samples.

Results

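Hmga1 and Gm9825 are 2 of the 22114 gene rows in each of the deposited count tables of DN3 thymocytes, and both rows passed the filter on low counts in both tables. They were chosen from these data because the reads on them stepped in opposite directions between p21-/- and p21-intact libraries, and because Gm9825 also stepped between GFPhi and GFPlo libraries. Those steps are therefore given here as descriptions, with no test. The rows were put together as Hmga1 and a retrogene copy of it. The sequences go against that: Gm9825 is a processed copy of Rnps1. The rows are called by their own names below, and Gm9825 is set beside Rnps1, whose sequence it shares.

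DN3 cells (CD4- CD8- CD25+ CD44-) are immature T-cell progenitors of the thymus. In the first table, total DN3 cells came from mice aged 6 weeks, with 3 wild-type (WT) libraries and 2 libraries each of p21-/-, Lmo2Tg and Lmo2Tg;p21-/- mice used. Lmo2Tg mice carry an Lmo2 transgene under CD2 control, which drives it in T-lineage cells, and p21 is the product of Cdkn1a, an inhibitor of the cell cycle. In the second table, 3 GFPhi and 3 GFPlo libraries came from DN3 cells of TetOP-H2B-GFP KI/+;Lmo2Tg mice, with p21 intact in both, given doxycycline for 6 weeks and then chased for 2 weeks. GFPhi cells had kept the labelled histone and GFPlo cells had diluted it by dividing. The paper took both sorts from 3 independent cohorts, so they may be paired by cohort, which the main fits did not use. All mice were on a C57BL/6J background reached by 10 generations of backcrossing, and RNA was prepared from sorted cells pooled from 3 to 5 mice, so the p-values below measure the spread between such pools.

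HMGA1 is a small architectural protein of chromatin that binds the minor groove of A+T-rich DNA. It is abundant in dividing, immature and malignant cells, T-cell leukemia included. RNPS1 binds RNA in the nucleus and is a part of the exon junction complex that marks spliced transcripts. A processed copy arises when a spliced transcript is reverse transcribed and inserted elsewhere in the genome, so that it has no introns and at first the same exon sequence as its parent. A short read from such a stretch can align to either place, and single differing bases decide between them.

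On GRCm38, Hmga1 lies on chromosome 17, from 27556497 to 27563674 on the plus strand, with 5 to 6 exons per annotated transcript. Its ends overlap those of Gm49774 and AI413582 on the opposite strand, so without strand a few of its reads cannot be told from theirs. Rnps1 lies on the same chromosome and strand, from 24414565 to 24425901. Both are close to Cdkn1a, the gene removed in the p21-/- mice, which runs from 29090976 to 29100727: the starts of Hmga1 and Rnps1 are 1.53 and 4.68 Mb from its start. Gm9825 is on another chromosome, a single exon on chromosome 6 from 7982541 to 7983383 on the minus strand. GENCODE M21 classes it as a processed pseudogene, and RefSeq names the locus Rnps1-ps.

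All 843 bases of the annotated Gm9825 transcript aligned without a gap to the coding part of Rnps1, with 5 differing bases (99.4% identical). With the Rnps1 base first, the position counted from 1 at the 5′ end of Gm9825, and the Gm9825 base last, they are C171A, C260T, T489C, T510C and C684T. Of its 819 words of 25 bases, 698 (85.2%) also occur in Rnps1 transcripts and 0 in Hmga1 transcripts. The stretches around the first, the third and the last difference are shown because these single bases, in capitals, are what separates a read of one row from a read of the other.
Rnps1 at C171A: taggtccagctcCacctccagctcg
Gm9825 at C171A: taggtccagctcAacctccagctcg
Rnps1 at T489C: ttacgggaaaatTaaaatgattgac
Gm9825 at T489C: ttacgggaaaatCaaaatgattgac
Rnps1 at C684T: gcgattcagcccCcctaggaggatg
Gm9825 at C684T: gcgattcagcccTcctaggaggatg

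The share of Gm9825 that a short read could not place follows from the spacing of these differences. Of all 75-base windows in Gm9825, 58.3% occur unchanged in Rnps1. With 100-base windows the share was 44.9%, and with 50-base windows 72.2%. The length of the reads, and what was done with a read that aligned equally well to 2 places, are not given in the sources used here. The levels of Hmga1, Rnps1 and Gm9825 are therefore levels of their rows, and are uncertain where reads could be split between places.

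Libraries held 13864936 to 16837667 counts in the genotype table and 26861394 to 31106213 in the GFP table, at which 3 counts are 0.176 to 0.222 and 0.0966 to 0.112 CPM (reads relative to the TMM-adjusted total of each library). Cdkn1a was at 36.5 to 49.0 CPM in WT and 14.3 to 17.7 CPM in p21-/- libraries, and at 26.3 and 32.8 CPM in Lmo2Tg and 3.50 and 4.35 CPM in Lmo2Tg;p21-/- libraries, so reads remained on the gene in p21-/- libraries. Lmo2 was at 41.4 to 107 CPM in the genotype libraries with the transgene and at or below 0.306 CPM in those without it, and at 35.8 to 42.3 CPM in GFPlo libraries. All 7 DN3 markers were expressed in every library (Ptcra, the lowest, at 22.4 CPM or more), and markers of other cells were present too. The 3 later T-cell markers (Cd4, Cd8a and Cd8b1) summed to 44.4 to 127 CPM in GFPhi and 96.9 to 109 CPM in GFPlo libraries. Their sum was 23.7 to 27.1 CPM in WT and 16.96 to 36.99 CPM in p21-/- libraries. It was 55.8 to 68.9 CPM in Lmo2Tg and 37.3 to 52.1 CPM in Lmo2Tg;p21-/- libraries. The part of such cells in the results was not tested. Of 4 B-lineage markers, summed to 17.6 to 39.8 CPM, Cd79b held most, at 16.6 to 39.3 CPM, with Ms4a1 at most at 7.58 and Pax5 at 5.94 CPM. Of 4 myeloid markers, summed to 6.83 to 26.6 CPM, Lyz2 was at 3.24 to 18.8 CPM and Csf1r at most at 1.09 CPM. GFPhi replicate 3 stood apart from the other GFPhi libraries, with Lmo2 at 285 CPM against 53.8 and 29.5 CPM and Cdkn1a at 6.56 CPM against 35.8 and 29.9 CPM. The GFP fold changes of Hmga1, Gm9825, Rnps1 and the sums are therefore given with and without it. Values of other genes include it unless stated otherwise.

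Fewer reads per library size fell on Hmga1 in p21-/- than in p21-intact DN3 cells. The levels were 241, 235 and 293 CPM in the 3 WT libraries and 122 and 115 CPM in the 2 p21-/- libraries. They were 259 and 295 CPM in Lmo2Tg and 89.6 and 103 CPM in Lmo2Tg;p21-/- libraries. Every p21-/- library lay below every p21-intact library, with or without the transgene.

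By group mean, the order was Lmo2Tg (277 ± 25.1 CPM, SD, n = 2), WT (257 ± 32.0, n = 3), p21-/- (118 ± 4.56, n = 2) and Lmo2Tg;p21-/- (96.3 ± 9.54, n = 2). Lmo2Tg and WT overlapped in their ranges. The ranges of p21-/- and Lmo2Tg;p21-/- did not overlap, but their difference did not pass the test given below. The log2 fold change of Hmga1 was -1.11 for p21-/- against WT (SE 0.114, 95% interval -1.37 to -0.86) and -1.52 for Lmo2Tg;p21-/- against Lmo2Tg (SE 0.124, -1.80 to -1.25).

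Reads on Gm9825 went the other way and by far more. The row held 20, 12 and 19 reads in WT libraries (1.23, 0.763 and 1.15 CPM) and 784 and 782 reads in p21-/- libraries (46.0 and 49.5 CPM). It held 11 reads in each Lmo2Tg library (0.814 and 0.752 CPM) and 536 and 673 in Lmo2Tg;p21-/- libraries (38.3 and 40.6 CPM). In the genotype table, no p21-intact library reached 2 CPM and no p21-/- library was below 38 CPM.

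The order of the Gm9825 means was p21-/- (47.7 ± 2.50 CPM), Lmo2Tg;p21-/- (39.4 ± 1.68), WT (1.05 ± 0.248) and Lmo2Tg (0.783 ± 0.0434). WT and Lmo2Tg overlapped. The log2 fold change was 5.50 for p21-/- against WT (SE 0.153, 95% interval 5.16 to 5.83), or 45.1-fold. It was 5.64 for Lmo2Tg;p21-/- against Lmo2Tg (SE 0.195, 5.21 to 6.07), or 49.96-fold.

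Rnps1, which shares its sequence with Gm9825, showed the mirrored step. It was at 122, 124 and 144 CPM in WT and 112 and 124 CPM in Lmo2Tg libraries, against 54.2 and 57.0 CPM in p21-/- and 38.2 and 45.3 CPM in Lmo2Tg;p21-/- libraries. Its log2 fold change was -1.23 (SE 0.105) without and -1.50 (SE 0.115) with the transgene. Hmga1 and Rnps1 on chromosome 17 were thus lower, and Gm9825 on chromosome 6 higher, in each of the 4 p21-/- libraries.

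**Figure D1:**
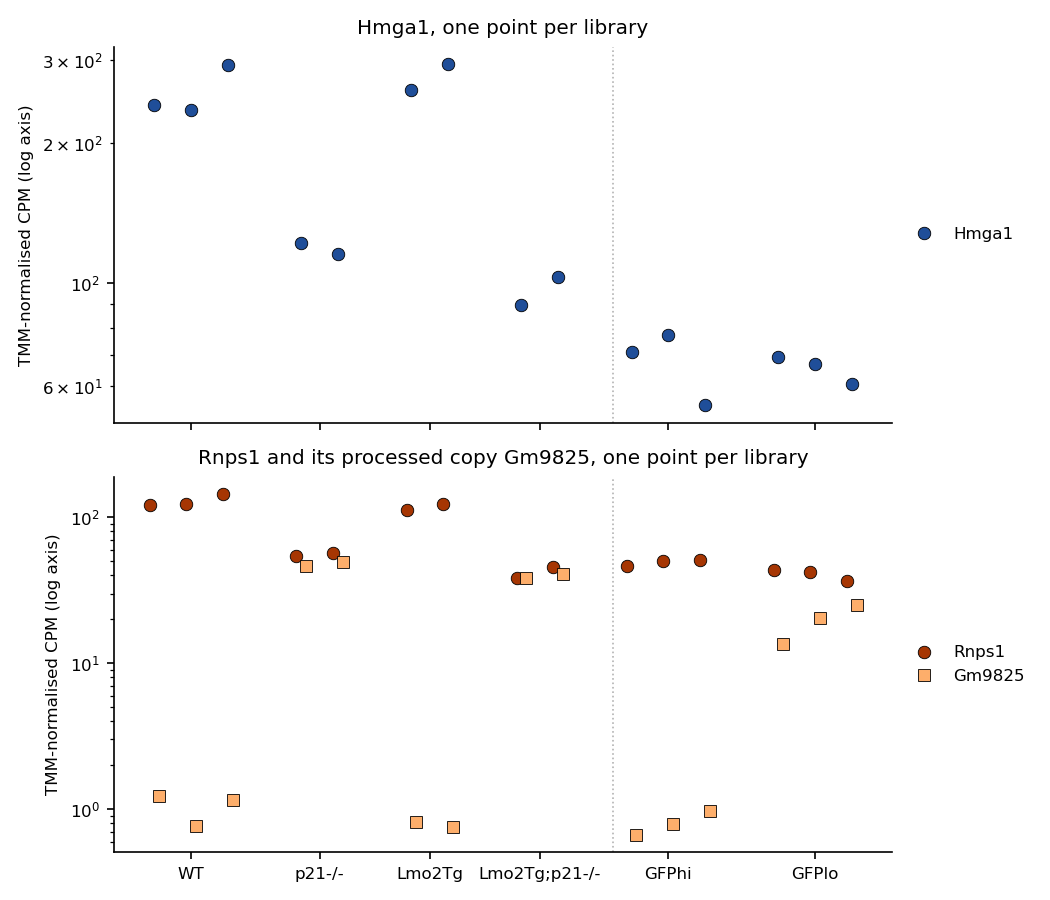
TMM-normalised CPM (log axis) of Hmga1 (top) and of Rnps1 and Gm9825 (bottom), with 1 circle for Hmga1 or Rnps1 and 1 square for Gm9825 in each library, in the order of replicates in each of the 6 groups. The Hmga1 circles are lower in both p21-/- groups than in WT and Lmo2Tg libraries. The squares lie near 1 CPM in WT, Lmo2Tg and GFPhi libraries, close to the Rnps1 circles in both p21-/- groups, and in between in GFPlo libraries; the dotted line parts the tables, whose levels are not on a common scale.

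In the GFP table, where all mice had p21, Gm9825 stepped between the groups, while the ranges of Hmga1 overlapped. Gm9825 held 18, 23 and 26 reads in GFPhi libraries (0.661, 0.785 and 0.968 CPM) and 367, 580 and 778 reads in GFPlo libraries (13.6, 20.3 and 25.1 CPM). The groups did not overlap, and the log2 fold change of GFPhi against GFPlo was -4.60 (SE 0.304, 95% interval -5.34 to -3.86). Without GFPhi replicate 3 it was -4.75 (SE 0.350).

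Hmga1 itself was at 71.0, 77.2 and 54.6 CPM in GFPhi and 69.3, 66.9 and 60.9 CPM in GFPlo libraries. These ranges overlapped, with a log2 fold change of 0.04 (SE 0.136, 95% interval -0.29 to 0.37). Without GFPhi replicate 3, the lowest, it was 0.18 (SE 0.0750, 0.002 to 0.36), and the ranges did not overlap. Rnps1 was at 46.2 to 51.1 CPM in GFPhi and 43.5, 42.4 and 36.7 CPM in GFPlo libraries, with no overlap and a log2 fold change of 0.26 (SE 0.0887, 0.05 to 0.48), and 0.24 without GFPhi replicate 3. The 95% interval for Rnps1 ran from -0.03 to 0.53 without GFPhi replicate 2 and from -0.01 to 0.40 without GFPlo replicate 3. With all libraries, the step between GFPhi and GFPlo in the pair chosen thus came from the Gm9825 row. Without GFPhi replicate 3, Hmga1 differed in the opposite direction to Gm9825, by far less. The GFPlo libraries, sorted from Lmo2Tg mice with p21, held more reads on Gm9825 than any Lmo2Tg library of the genotype table, measured as the share described next. The tables may have been counted with different settings, so this comparison across them is a description.

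The copy share is the percentage of the summed Rnps1 and Gm9825 reads that were counted on Gm9825. It needs no scaling for library size, but it depends on how reads were aligned and counted, which may differ between the tables. The share was 0.995%, 0.612% and 0.790% in WT, 45.9% and 46.5% in p21-/-, 0.721% and 0.604% in Lmo2Tg, and 50.05% and 47.3% in Lmo2Tg;p21-/- libraries. In GFPhi libraries it was 1.41%, 1.55% and 1.86%, and in GFPlo libraries 23.8%, 32.3% and 40.6%. The 95% Wilson intervals ranged from 43.6 to 48.3% for p21-/- replicate 1 and from 21.7 to 26.0% for GFPlo replicate 1, and they cover counting error only. Libraries thus fell near 1%, near 47%, or, in GFPlo cells, between these.

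For the rows chosen, Gm9825 held 0.407 ± 0.0925% (SD, n = 3) of the summed Hmga1 and Gm9825 reads in WT, 28.7 ± 1.86% (n = 2) in p21-/-, 0.284 ± 0.0413% in Lmo2Tg, 29.1 ± 1.17% in Lmo2Tg;p21-/-, 1.22 ± 0.451% in GFPhi and 22.9 ± 6.40% in GFPlo libraries.

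**Figure D2:**
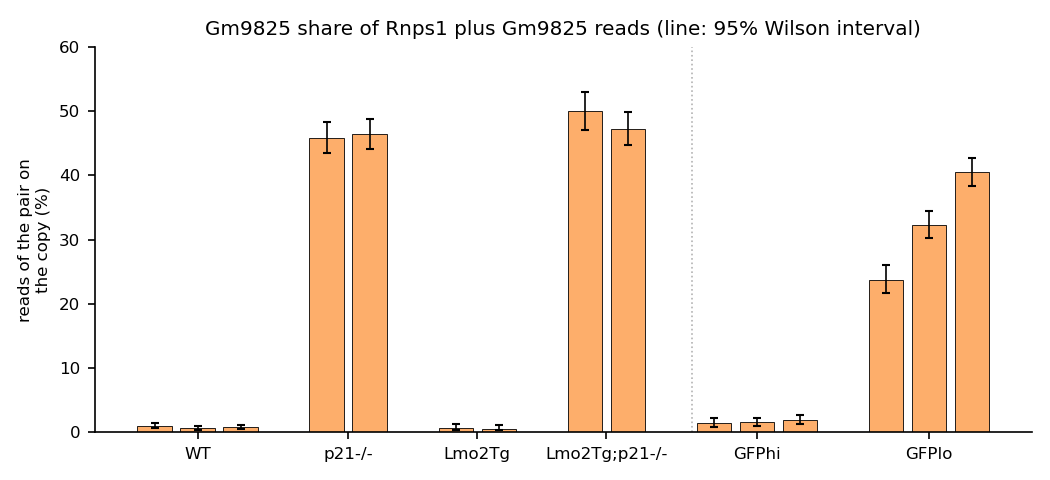
Percentage of the summed Rnps1 and Gm9825 reads that were counted on Gm9825, with 1 bar for each library and its 95% Wilson interval, in the order of replicates in each group. The bars are below 2% in WT, Lmo2Tg and GFPhi libraries, from 45.9% to 50.05% in both p21-/- groups, and from 23.8% to 40.6% in GFPlo libraries.

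Whether reads were kept in sum was asked first of the rows as chosen. Hmga1 plus Gm9825 was at 258 ± 32.1 CPM in WT and 166 ± 2.06 CPM in p21-/- libraries, a log2 fold change of -0.63 (SE 0.109, 95% interval -0.87 to -0.39). It was at 278 ± 25.1 CPM in Lmo2Tg and 136 ± 11.2 CPM in Lmo2Tg;p21-/- libraries, a log2 fold change of -1.03 (SE 0.119, -1.29 to -0.77). For GFPhi against GFPlo it was -0.32 (SE 0.127, -0.63 to -0.01), and -0.18 (-0.33 to -0.04) without GFPhi replicate 3. The rows were chosen for their steps in these contrasts, so the intervals describe the sum and are not a test. For GFPhi against GFPlo the interval ran from -0.73 to 0.04 without GFPhi replicate 1 and from -0.72 to -0.11 without GFPhi replicate 2. It ran from -0.74 to 0.06, -0.69 to 0.10 and -0.71 to 0.09 without GFPlo replicate 1, 2 and 3.

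The sum of the rows that share sequence moved less, without staying level. This sum was chosen after the values were seen. Rnps1 plus Gm9825 was at 123, 125 and 145 CPM in WT and 100 and 107 CPM in p21-/- libraries, 21.2% lower in p21-/- (log2 fold change -0.34, SE 0.0958, 95% interval -0.56 to -0.13). It was at 113 and 125 CPM in Lmo2Tg and 76.4 and 86.0 CPM in Lmo2Tg;p21-/- libraries, 31.6% lower (-0.55, SE 0.105, -0.78 to -0.31). The gain on Gm9825 came to 62.7% without and 50.8% with the transgene of the mean CPM by which Rnps1 was lower. No p21-/- library reached the lowest p21-intact library, so the opposite steps of Rnps1 and Gm9825 did not cancel in the counts of these rows. RefSeq gives the locus of the copy a length of 1625 bases, against 843 for the annotated Gm9825 transcript. Reads on the rest of the locus may be in neither row, and their part in the sum was not tested.

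In the GFP table the sum was lower in GFPhi. Rnps1 plus Gm9825 was at 46.8, 50.8 and 52.0 CPM in GFPhi and 57.0, 62.7 and 61.8 CPM in GFPlo libraries (log2 fold change -0.28, SE 0.0708, 95% interval -0.45 to -0.11, and -0.30 without GFPhi replicate 3). The groups did not overlap. In bulk RNA of sorted cells, fewer cells expressing a gene and less RNA of it per cell cannot be told apart.

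**Figure D3:**
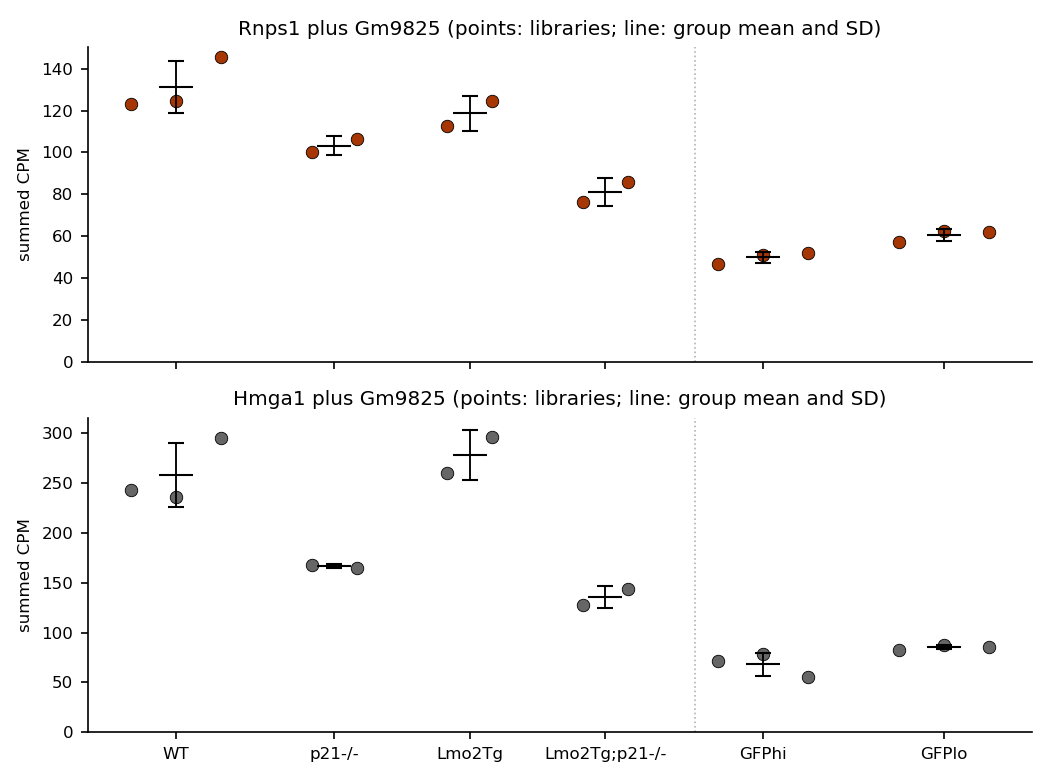
Summed TMM-normalised CPM of Rnps1 plus Gm9825 (top) and of the rows as chosen, Hmga1 plus Gm9825 (bottom), with 1 point for each library and the group mean ± SD. Among the genotype libraries, the p21-/- points lie below the p21-intact points in both panels, by 21.2% and 31.6% of the fitted level in the upper panel, and among the GFP libraries, which are not on a common scale with these, the GFPhi points lie below the GFPlo points.

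The effect of the Lmo2 transgene was not used in the choice and could be tested. Neither Hmga1 nor Gm9825 was called in either background, in tables where 36.6% (Lmo2Tg against WT) and 30.7% (Lmo2Tg;p21-/- against p21-/-) of the 11840 genes tested were called at an adjusted p under 0.05 in edgeR's quasi-likelihood test. Without p21 loss, Hmga1 had a log2 fold change of 0.11 (SE 0.109, adjusted p = 0.461) and Gm9825 of -0.42 (SE 0.280, adjusted p = 0.357). At 11 to 20 reads per library, the interval for Gm9825 ran from -1.04 to 0.20.

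With p21 loss, Hmga1 had a log2 fold change of -0.30 (SE 0.122, adjusted p = 0.0876) and Gm9825 of -0.27 (SE 0.123, adjusted p = 0.114). Both had an unadjusted p under 0.05 (0.0334 and 0.0481), DESeq2 called neither, and limma-voom called Gm9825 alone (adjusted p = 0.0490). The call for Hmga1 also turned with the libraries in the fit: with the 4 libraries of these groups alone its adjusted p was 0.0433.

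Rnps1 was called with p21 loss (log2 fold change -0.41, SE 0.115, adjusted p = 0.0201) and not without it (-0.14, SE 0.101, adjusted p = 0.297). The difference between these effects was -0.27 (SE 0.152). It is also the difference between the p21 steps of Rnps1, which were seen before this row was added. Whether the effects differ was therefore not tested. The call was lost when p21-/- replicate 1 or 2 or Lmo2Tg;p21-/- replicate 1 was left out (adjusted p = 0.0529, 0.105 and 0.162). Rnps1 plus Gm9825 fell with p21 loss (-0.35, SE 0.105, adjusted p = 0.0288), with the call lost without the same libraries (0.0633, 0.151 and 0.195). The other sums were not called for the transgene, at 0.11 (Hmga1 plus Gm9825, adjusted p = 0.456) and -0.14 (Rnps1 plus Gm9825, 0.264) without p21 loss and at -0.29 (Hmga1 plus Gm9825, 0.0836) with it.

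Most genes within 500 kb of the start of Hmga1 were not called for p21 loss. Of the 15 such rows, 13 were tested. For p21-/- against WT, 1 of the 13 was called, against 0.110% of all genes: Anks1, whose start is 353 kb from that of Hmga1 and which encodes an ankyrin-repeat adaptor. Anks1 was at 251, 254 and 244 CPM in WT and 121 and 92.3 CPM in p21-/- libraries (log2 fold change -1.23, SE 0.126, adjusted p = 0.00185). It was at 291 and 232 CPM in Lmo2Tg and 86.7 and 80.7 CPM in Lmo2Tg;p21-/- libraries (-1.64, SE 0.136, adjusted p = 1.96e-04). AI413582, the nearest, which overlaps Hmga1 on the opposite strand, had a log2 fold change of -0.55 (SE 0.231) at 3.72 against 5.48 CPM on average and was not called. Nudt3 and Rps10, which start 22.9 and 73.9 kb from Hmga1, had log2 fold changes of -0.19 (SE 0.0904) and -0.11 (SE 0.0989) for p21-/- against WT and were not called.

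For Lmo2Tg;p21-/- against Lmo2Tg, 5 of the 13 were called, against 6.94% of all genes, with Snrpc (-0.60) and Taf11 (-0.52) lower beside Anks1 and Grm4 (1.81) and Uhrf1bp1 (0.42) higher. Grm4, a metabotropic glutamate receptor gene whose start lies at -134 kb from that of Hmga1, had the widest range of the neighbours over the p21 and GFP contrasts, in the directions of Gm9825. Uhrf1bp1 had the same signs, at 0.25 for p21-/- against WT, 0.42 here and -0.54 for GFPhi against GFPlo. It was called here by edgeR but not by DESeq2 or limma-voom, and for GFPhi against GFPlo only without GFPhi replicate 3. Grm4 was at 11.8 to 18.7 CPM in WT, 41.3 and 42.2 CPM in p21-/-, 2.53 and 6.43 CPM in Lmo2Tg, and 15.3 and 15.8 CPM in Lmo2Tg;p21-/- libraries. For p21-/- against WT its log2 fold change of 1.47 (SE 0.240) had an adjusted p of 0.0613 in edgeR, and it was called by DESeq2 and limma-voom.

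For GFPhi against GFPlo, 2 of the 13 neighbours were called, both lower, where 14.9% of 11581 genes were called and 9.49% were called lower. Grm4 was at 1.43, 1.40 and 3.24 CPM in GFPhi and 40.4, 56.0 and 56.9 CPM in GFPlo libraries (log2 fold change -4.66, SE 0.384, adjusted p = 0.00228), and the other was Uqcc2 (-0.51, SE 0.112, adjusted p = 0.0347). Without GFPhi replicate 3, 41.3% of all genes and 4 of the 13 were called. The transgene called 5 of the 13 without p21 loss (2 higher, 3 lower), near the 36.6% of all genes, and 3, all lower, with it, where 14.4% of all genes were called lower.

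**Figure D4:**
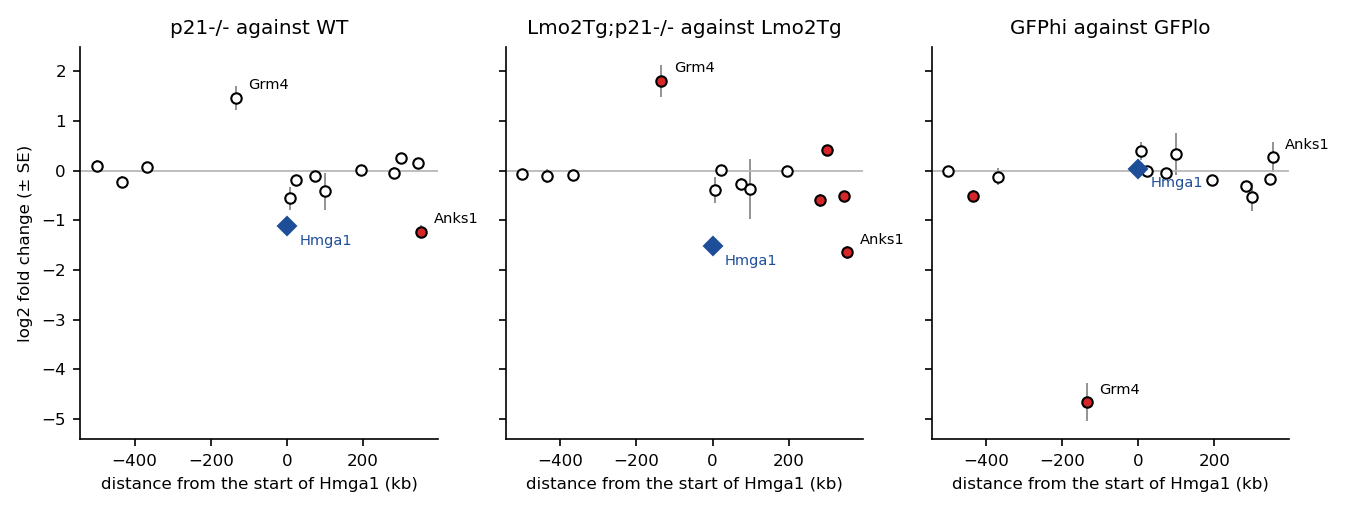
Log2 fold change ± SE of the 13 tested genes within 500 kb of the start of Hmga1 (circles, red where the adjusted p was under 0.05) and of Hmga1 (blue diamond, a description with no test) against the distance of each start from that of Hmga1, for p21-/- against WT (left), Lmo2Tg;p21-/- against Lmo2Tg (middle) and GFPhi against GFPlo (right). Anks1 lies near Hmga1 in the first and second panels, Grm4 lies above 0 in these and at -4.66 in the third, and AI413582, the nearest at 7.08 kb, lies at -0.55, -0.39 and 0.40 in the 3 panels.

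Other genes around Cdkn1a were called as well. Leaving out Hmga1, Gm9825 and Rnps1, which were chosen with their values known, 10 genes were called for p21-/- against WT. The 9 of them reported here are all on chromosome 17, at -5.25 to 1.53 Mb from the start of Cdkn1a. This chromosome holds 5.34% of the genes with a mean of at least 1 CPM in both tables. Cdkn1a itself had a log2 fold change of -1.36 (adjusted p = 0.00821). Beside Anks1 and Cdkn1a, those on chromosome 17 that were lower were Prss30, Atp6v0c and Gnptg, and Prss41, Btbd9, Glo1 and Dnah8 were higher.

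The rows most like Gm9825 were found by the mean of the Pearson correlations of log2 CPM in the tables (9 and 6 libraries), over 10551 genes with a mean of at least 1 CPM in both. The libraries share genotypes and sorts, so the values are descriptions. The highest were Glo1 (mean r = 0.970), Lrrc8b (0.921), Layn (0.906), Amacr (0.874) and Syne1 (0.861). The lowest were Gnptg (-0.978), Atp6v0c (-0.944), Rps2 (-0.924), Rnps1 (-0.905) and M6pr (-0.881). Of these 10 genes, 5 (Glo1, Gnptg, Atp6v0c, Rps2 and Rnps1) are on chromosome 17, which holds 5.34% of the genes compared, all within 5 Mb of the start of Cdkn1a.

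Glo1, the glyoxalase that detoxifies methylglyoxal, starts 1.49 Mb from the start of Cdkn1a. It was at 51.1 to 55.8 CPM in WT and 55.2 and 60.8 CPM in Lmo2Tg libraries, against 110 and 120 CPM in p21-/- and 142 and 145 CPM in Lmo2Tg;p21-/- libraries. In the GFP table it was at 45.5 to 58.4 CPM in GFPhi and 87.2, 114 and 138 CPM in GFPlo libraries. Gnptg, a subunit gene of the enzyme that tags lysosomal enzymes with mannose 6-phosphate, ran the other way. It was at 20.5 to 26.1 CPM in the 5 p21-intact libraries of the genotype table and 10.2 to 12.2 CPM in the 4 p21-/- libraries, and at 35.7 to 40.9 CPM in GFPhi and 21.6 to 27.7 CPM in GFPlo libraries. In both genes, as in Gm9825, the GFPlo libraries lay on the side of the p21-/- libraries, although GFPlo cells came from mice with p21. Both genes were picked for their correlation with Gm9825 in these same libraries, so the shared side follows from the choice.

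Other high mobility group genes were counted in the same contrasts. Of the 11 genes listed, 9 were tested. HMGA2, the close relative of HMGA1, is an embryonic and oncogenic protein, and its gene held 2 to 10 reads in each WT and p21-/- library and 0 reads in each Lmo2Tg, Lmo2Tg;p21-/- and GFP library, below the filter. For p21-/- against WT, 0 of the 9 were called by edgeR, DESeq2 or limma-voom (1 had an unadjusted p under 0.05 in edgeR), where edgeR called 0.110% of all genes, with a median log2 fold change of 0.02 beside -5.75e-04 over all genes. For Lmo2Tg;p21-/- against Lmo2Tg, 0 were called by edgeR and limma-voom and 3 by DESeq2, all lower (7 had an unadjusted p under 0.05 in edgeR), where edgeR called 6.94% of all genes, with a median of -0.30 beside 0.02 over all genes.

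The transgene moved the nucleosome-binding gene Hmgn3 in both backgrounds. It was at 13.5 to 14.9 CPM in WT and 2.26 and 3.62 CPM in Lmo2Tg libraries (log2 fold change -2.26, SE 0.196, adjusted p = 1.25e-05), and at 12.03 and 13.3 CPM in p21-/- and 3.28 and 3.50 CPM in Lmo2Tg;p21-/- libraries (-1.90, SE 0.201, adjusted p = 5.32e-05). Without p21 loss, 2 of the 9 were called, where 36.6% of all genes were, the other being Hmgb3, a DNA-bending HMG-box protein gene, which rose by 0.42 (SE 0.136, adjusted p = 0.0328). With p21 loss, 5 of the 9 were called, all lower, where 14.4% of all genes were: Hmgn3, Hmgn5 (-0.54), Hmgn2 (-0.51), Hmgb2 (-0.49) and Hmgb1 (-0.35), with a median of -0.35 beside 0.00 over all genes.

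For GFPhi against GFPlo, 1 of the 9 was called, Hmgn3, at 1.34 to 1.91 CPM in GFPhi and 6.81 to 11.2 CPM in GFPlo libraries (log2 fold change -2.42, SE 0.280, adjusted p = 0.00580). This is near the 14.9% of all genes called. DESeq2 called 4 of the 9 and limma-voom 2, Hmgn3 among them. The median was -0.11 beside 0.02 over all genes. Without GFPhi replicate 3, 4 of the 9 were called, 2 in each direction, where 41.3% of all genes were. The summed level of the 5 proliferation markers (Mki67, Top2a, Ccnb1, Pcna and Mcm2) was 1833 to 3046 CPM in GFPhi and 2540 to 3676 CPM in GFPlo libraries, and 2322 to 3035 CPM in Lmo2Tg;p21-/- against 2884 to 3438 CPM in Lmo2Tg libraries. It was 3594 to 4008 CPM in p21-/- and 3230 to 3561 CPM in WT libraries. The markers thus did not move with Hmga1 and Gm9825 in 1 direction, and their part in the results was not tested.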

How the data were processed

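Read counts per gene, whole and not normalised, were deposited by the authors in a table of 9 usable genotype libraries and a table of 6 GFP libraries, from poly-A captured RNA. Per the submitters' processing notes, reads were aligned to mm10 with STAR 2.4.2a and counted with featureCounts, and the notes also name limma. Multi-mapping settings are not given in the sources used here. The labels of the deposited counts read featureNo for the genotype libraries and featureReverse for the GFP libraries, which may name different strand settings. The column names put 2 libraries in Lmo2Tg without a replicate number, 1 further column was not used because no sample could be assigned to it, and 1 p21-/- sample was not analysed here.

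Counts were scaled by TMM and tested on the whole tables with edgeR 4.0.16 (R 4.3.3), by the quasi-likelihood test with Benjamini-Hochberg adjustment, after filterByExpr (minimum count 10, minimum total 15) had left 11840 and 11581 genes. The genotype groups share 1 estimate of the spread. Intervals of fold changes are 95% intervals of the fit. Sums were made by replacing both rows by their total before the fit. Positions and transcripts came from GENCODE M21 (GRCm38), and the locus name from RefSeq (GRCm38.p6). The same results were recomputed with limma-voom (limma 3.58.1), DESeq2 1.42.0, size factors by RLE, other filters, a block for the replicate number, a fit of the compared groups alone, and every library left out once. On simulated data, edgeR recovered 174 to 188 of 200 genes changed by 1 on the log2 scale in the genotype contrasts and 126 in the GFP contrast, with 4 to 10 other calls.

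The members and lists were chosen with earlier results of these data known. Genes were named by rule: the members, Cdkn1a and Lmo2, 11 HMG genes, neighbours within 500 kb of Hmga1, and the 5 rows most and least like Gm9825. Rnps1 and its sum with Gm9825 were added after the sequences and values were seen, as were the values given per library for Glo1 and Gnptg. Some genes, and the planned comparisons that need them, are not reported here; they stayed in the fits and were left out of the lists named.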

Additional observations from a re-analysis of the deposited data

How the results depend on the processing

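With RLE size factors, DESeq2, limma-voom, no filter, only the groups compared, and each library left out, the log2 fold changes of Hmga1 and Gm9825 in the p21 contrasts and of Gm9825 in the GFP contrast kept their direction. Settings that changed a call or value were few. For Lmo2Tg;p21-/- against p21-/-, Hmga1 was called with only the libraries of these groups (-0.30, adjusted p = 0.0433), Gm9825 with limma-voom (-0.27, adjusted p = 0.0490), and Hmga1 plus Gm9825 with only these libraries (-0.29, adjusted p = 0.0331).

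With 1 library left out (a lone library is then assumed to vary like the other groups), Rnps1 plus Gm9825 for Lmo2Tg;p21-/- against p21-/- ran from -0.44 to -0.28. Hmga1 for GFPhi against GFPlo ran from -0.06 to 0.18.

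Whether the replicate numbers mark pairs could not be decided from so few libraries per group. Deviations of same-numbered libraries correlated at -0.08 to 0.10 in the GFP table and -0.24 to 0.30 among the genotypes. With the number as a block, the log2 fold change of GFPhi against GFPlo was -4.58 (SE 0.171) for Gm9825. It was 0.03 (SE 0.0953) for Hmga1 and 0.27 (SE 0.104, 95% interval -0.02 to 0.55) for Rnps1. With the number as a block, without the unnumbered Lmo2Tg libraries, Hmga1 (-0.30, adjusted p = 0.0138) and Hmga1 plus Gm9825 (-0.29, adjusted p = 0.00865) were called for Lmo2Tg;p21-/- against p21-/-. No block could be set for contrasts with Lmo2Tg, whose libraries carry no usable number. With at least 1 CPM in every library, Gm9825 was dropped from both tables. At 11 to 20 reads per library, Gm9825 in WT and Lmo2Tg libraries limits the precision of every fold and share that uses it.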

Other observations

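Around Rnps1, 51 rows start within 500 kb of its start and 35 were tested. For p21-/- against WT, edgeR called 2, both lower, where it called 0.110% of all genes: Atp6v0c, a proton-pump subunit gene, at 46.3, 49.2 and 52.4 CPM in WT and 21.8 and 24.4 CPM in p21-/- libraries (log2 fold change -1.10, SE 0.0968, adjusted p = 5.99e-04), and Prss30 (-2.82, SE 0.279, adjusted p = 0.00256). DESeq2 called 5 (2 higher, Pdpk1 and Abca3) and limma-voom 3 (1 higher, Abca3, which had a log2 fold change of 0.68 and an adjusted p of 0.0552 in edgeR). For Lmo2Tg;p21-/- against Lmo2Tg, edgeR called 9 of the 35, 2 higher and 7 lower, where it called 6.94% of all genes. For GFPhi against GFPlo, 7 were called, 3 higher and 4 lower, where 14.9% of all genes were called. Atp6v0c was at 17.1 to 19.5 CPM in GFPhi and 9.56 to 13.9 CPM in GFPlo libraries (0.64, SE 0.160, adjusted p = 0.0481), and the ribosomal protein gene Rps2 at 186 to 196 CPM in GFPhi and 116 to 139 CPM in GFPlo libraries (0.61, SE 0.0809, adjusted p = 0.00877). This window was chosen after the values were seen.

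The rows most like Hmga1 itself, over the same libraries, were Ndufb7 (mean r = 0.903), U2af2 (0.897), Eif2b4 (0.892), Cdkn1a (0.872) and Gatad2a (0.867), of which Cdkn1a is on chromosome 17. The difference of the transgene's effect between p21-/- and p21-intact backgrounds was -0.41 on the log2 scale for Hmga1 (SE 0.164). It was 0.15 for Gm9825 (SE 0.303). This is also the difference between the p21 steps for which the rows were chosen, so it is a description with no test.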
